A study of Mus musculus with 7 samples.

Results

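The 10 genes studied encode checkpoint ligands and immune inhibitory receptors, and were followed in cells sorted from mouse gliomas through serial transplantation. These samples also carried RNA of microglia and macrophage markers, so levels are not those of tumour cells alone. They were Cd274, Pdcd1lg2, Cd276, Cd80, Cd86, Cd47 and Cd200 among the ligands, and Havcr2, Sirpa and Cd200r1 among the receptors. Each was matched by its symbol to array probes whose annotation gives 1 gene symbol, and, where several probes matched, was read from the one whose mean over the 7 arrays was highest. All 10 genes had such a probe, among 18193 genes on the array, and together they had 21 probes.

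The tumours came from low-grade, early-onset gliomas of C57/Bl6 background induced by overexpression of PDGF-B, carried with the EGFP reporter on a single bicistronic transcript. Secondary gliomas (n = 4) grew in NOD/SCID mice grafted with cells of such a primary tumour, and tertiary gliomas (n = 3) grew in NOD/SCID mice grafted with cells of a secondary glioma. All 7 samples therefore shared the PDGF-B/EGFP transgene, the host strain and a flow sort for EGFP-positive cells. NOD/SCID hosts lack functional B and T lymphocytes but keep microglia and other myeloid cells. The labels do not give the age of the mice, whether tumours were pooled, or which primary or secondary tumour each sample came from, so p-values measure the spread between these samples.

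Checkpoint ligands are surface proteins that lower the activity of the immune cell that binds them. PD-L1 (Cd274) and PD-L2 (Pdcd1lg2) bind PD-1 on T cells, while CD80 and CD86 bind CD28, which activates T cells, and CTLA-4, which restrains them. CD47 and CD200 act on myeloid cells instead, through SIRPα and the CD200 receptor, and CD47 is known as the signal by which a cell resists being engulfed. In glioma, CD276 (B7-H3) is often carried by the tumour cells, whereas TIM-3 (Havcr2), SIRPα and CD86 are found mainly on microglia and macrophages.

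Promoter sequences show how differently these genes are built at their starts. The RefSeq promoter table (build GRCm38.p6), which covers 250 bases before to 50 bases after a start, held 8 windows for 7 of the 10 genes. Cd86, Sirpa and Cd200r1 had no entry. The windows of Havcr2 and Cd274, both lower in tertiary gliomas, and of Cd47 and Cd276, which were not called, are printed 5′ to 3′ along the gene, with each CpG dinucleotide in capitals.
Havcr2, chr11:46454681-46454980, plus strand: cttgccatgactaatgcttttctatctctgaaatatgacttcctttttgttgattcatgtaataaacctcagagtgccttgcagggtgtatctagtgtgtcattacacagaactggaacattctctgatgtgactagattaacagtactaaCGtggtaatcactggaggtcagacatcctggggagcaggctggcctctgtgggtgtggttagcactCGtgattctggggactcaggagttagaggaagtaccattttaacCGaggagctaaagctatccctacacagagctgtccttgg
Cd274, chr19:29367188-29367487, plus strand: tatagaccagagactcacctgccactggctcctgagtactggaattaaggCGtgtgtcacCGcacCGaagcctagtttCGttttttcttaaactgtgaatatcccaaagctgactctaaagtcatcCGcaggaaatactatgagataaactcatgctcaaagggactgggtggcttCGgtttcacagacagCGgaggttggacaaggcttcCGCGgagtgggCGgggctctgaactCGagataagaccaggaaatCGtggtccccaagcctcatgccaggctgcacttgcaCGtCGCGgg
Cd47, chr16:49855404-49855703, plus strand: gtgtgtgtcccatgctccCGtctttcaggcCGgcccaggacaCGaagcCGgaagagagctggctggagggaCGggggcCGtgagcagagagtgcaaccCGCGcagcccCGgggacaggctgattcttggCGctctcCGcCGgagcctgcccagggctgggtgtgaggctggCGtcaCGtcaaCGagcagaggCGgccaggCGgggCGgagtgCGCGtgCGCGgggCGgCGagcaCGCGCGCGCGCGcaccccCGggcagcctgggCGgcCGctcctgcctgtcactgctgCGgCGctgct
Cd276, chr9:58554984-58555283, minus strand: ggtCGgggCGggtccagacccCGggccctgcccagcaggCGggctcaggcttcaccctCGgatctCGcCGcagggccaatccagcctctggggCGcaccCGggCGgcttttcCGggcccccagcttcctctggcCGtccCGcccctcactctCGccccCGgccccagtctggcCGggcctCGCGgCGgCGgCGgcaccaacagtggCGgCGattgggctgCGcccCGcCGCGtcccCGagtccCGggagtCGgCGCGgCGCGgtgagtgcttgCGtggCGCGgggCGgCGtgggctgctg

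The Havcr2 window held 3 CpGs and the Cd274 window 15, against 35 in the Cd47 window and 39 in that of Cd276. The median over 32851 windows was 7. The windows of Pdcd1lg2 and Cd80 held 3 CpGs each, and that of Cd200 held 8. Each window was searched on both strands for GAGGAAGT, a form of the element bound by the myeloid factor PU.1. It was found in Havcr2 alone among the 8 windows, on the gene's own strand at position -8 from the start, and 3.2% of all windows hold it. Its shorter core GAGGAA, which that match contains, was also found in Pdcd1lg2, Cd276 and Cd200 and is held by 28.3% of all windows. The interferon gamma element TTCNNNGAA (8.3% of all windows) was found in none of the 8. The pattern TGANTCA (7.81%), looser than the AP-1 element because N is any base, was found in Cd80 and Havcr2. Both matches read TGATTCA, which is not the AP-1 consensus. TATAAA (13.6%) was found in Cd80, on the opposite strand at position 4 from the start. These matches describe letters and not binding.

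Levels were read as log2 values normalized by the authors with RMA, in which a difference of 1 is a doubling within a probe and levels of different probes cannot be compared. The array medians lay between 5.57 and 5.64. Genes whose probe had a mean under 3.99, the 25th percentile of all probes, were not tested, which left 14453 genes. Of the 10 genes, 9 were tested, and Pdcd1lg2 was not. The test was limma with Benjamini-Hochberg adjustment over all genes tested, and "lower", "fell" or "called" below means an adjusted p under 0.05.

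6 of the 9 tested genes (Cd86, Havcr2, Sirpa, Cd200r1, Cd274 and Cd80) fell from secondary to tertiary gliomas, and 0 rose. Cd276, Cd47 and Cd200 were not called. Among all genes tested, 7.38% were called, 6.33% lower and 1.04% higher. Over the 9 genes the log2 fold changes had a median of -1.51, and over all genes tested one of 0.09. Cd86 passed the filter only through its secondary level, since its tertiary mean lay below 3.99, so the counts are a description. In the same 6 genes every tertiary value lay below every secondary one. Of all genes tested, 21.9% had groups without overlap, 11.2% lower and 10.8% higher.

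**Figure D1:**
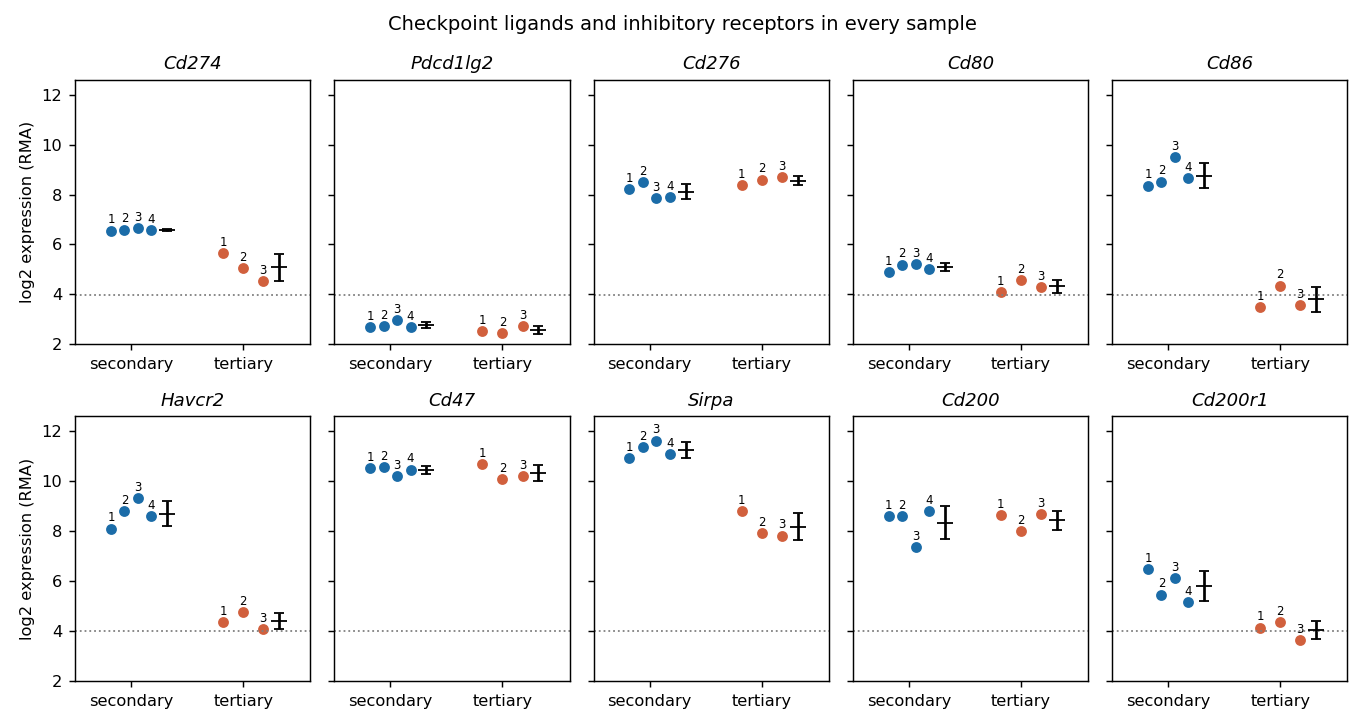
Log2 expression (RMA) of the 10 genes in the 4 secondary (blue) and 3 tertiary gliomas (orange), with the replicate number beside each point, and the group mean ± SD in black. The dotted line is the filter at 3.99. Cd86, Havcr2 and Sirpa are separated by the widest gaps between groups, Cd47 and Cd200 overlap, and both groups of Pdcd1lg2 lie below the line.

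Markers of microglia and macrophages fell in the same samples. All 19 of 19 were called lower, with a median log2 fold change of -4.19, and 2 of them (Itgam and Adgre1) had a tertiary mean below the filter. Their mean level was 10.09, 10.43, 10.90 and 10.38 in secondary gliomas 1 to 4 and 6.49, 6.82 and 5.99 in tertiary gliomas 1 to 3. The log2 fold changes of the 19 ranged from -5.37 (Ptprc) to -2.65 (Spi1). Of 7 granulocyte and monocyte markers with a probe, 3 passed the filter and were tested, and all 3 were lower (median -3.45). Csf3r was at -4.38, S100a9 at -3.45 and S100a8, whose tertiary mean lay below the filter, at -3.42. Ccr2, Cxcr2, Mpo and Elane had means below the filter and were not tested. Their differences were -0.69, -0.45, 0.14 and 0.06, and the median with them included was -0.69. The list mean, which includes them, lay between 4.87 and 6.13 in secondary and between 3.63 and 3.81 in tertiary gliomas. Of 3 dendritic cell markers tested, 1 was lower, the integrin Itgax, which macrophages also carry, at -4.86. In bulk samples, fewer cells of a type and less RNA per cell cannot be told apart, and the part of these markers in the results below was not tested. Of the 8 precursor and PDGF glioma markers tested, 1 fell (Pdgfb, log2 fold change -1.67) and 7 were not called, with Olig1 at -0.01 and Pdgfra at 0.05 (median 0.06). No source used here says whether the Pdgfb probe reads the PDGF-B transgene. Of the lymphocyte and natural killer cell markers, 0 of 5 tested were called, and their list mean lay between 3.93 and 4.16 in secondary and between 3.99 and 4.16 in tertiary gliomas.

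PD-1 ligands were represented by neighbouring genes with no protein-coding gene between them in GRCm38.p6. Cd274, which encodes PD-L1, was at 6.56, 6.59, 6.65 and 6.57 in secondary gliomas 1 to 4 and at 5.64, 5.06 and 4.54 in tertiary gliomas 1 to 3. The secondary values were nearly the same (SD 0.04), while the tertiary values spread more widely (SD 0.55) and all lay lower. The log2 fold change was -1.51 ± 0.24 (SE, n = 4 and 3; limma adjusted p = 0.00754), a 2.86-fold lower level.

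Pdcd1lg2, which encodes PD-L2, was at 2.69, 2.73, 2.96 and 2.69 in secondary and at 2.54, 2.44 and 2.73 in tertiary gliomas. All 7 values lay below the filter, and the groups overlapped. Without the filter its log2 fold change was -0.20 ± 0.12 (SE; limma adjusted p = 0.404). The change of Cd274 differed from that of Pdcd1lg2 by -1.31 on the log2 scale (exact permutation test over the 35 splits, two-sided p = 0.0286, the smallest they can give; 0.0357 adjusted over 5 gene pairs), with the limit that a probe this dim can show little change.

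Cd276 encodes B7-H3, a member of the B7 family whose receptor is not settled. It was at 8.23, 8.49, 7.86 and 7.90 in secondary gliomas 1 to 4 and at 8.36, 8.60 and 8.70 in tertiary gliomas 1 to 3. The 2 highest of the 7 values were tertiary, but secondary glioma 2 lay above tertiary glioma 1. The difference of 0.44 ± 0.19 (SE; limma adjusted p = 0.216) had a 95% interval from -0.0082 to 0.88. The change of Cd274 differed from that of Cd276 by -1.95 (exact permutation p = 0.0286; 0.0357 adjusted over the 5 pairs).

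Cd86 fell by 4.96 ± 0.32 on the log2 scale (SE; limma adjusted p = 0.000102), a size that the dim tertiary signal limits. Its levels were 8.36, 8.52, 9.49 and 8.67 in secondary gliomas 1 to 4 and 3.47, 4.35 and 3.56 in tertiary gliomas 1 to 3. Secondary glioma 3, which also had the highest mean of microglia and macrophage markers, was the highest, and tertiary gliomas 1 and 3 lay below the filter. Its other probe gave -4.33 ± 0.36 (SE; limma adjusted p = 0.000296 with every probe tested on its own), also with no overlap.

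Cd80 encodes the other ligand of CD28 and CTLA-4. It was at 4.89, 5.19, 5.23 and 5.01 in secondary gliomas 1 to 4 and at 4.09, 4.58 and 4.28 in tertiary gliomas 1 to 3. The groups did not overlap, with tertiary glioma 2 nearest to the secondary samples. The log2 fold change was -0.76 ± 0.16 (SE; limma adjusted p = 0.0310). Of its 3 other probes, the one above the filter gave -0.27 ± 0.17 (adjusted p = 0.399), and the mean of all 4 probes gave -0.28 ± 0.11 (adjusted p = 0.171). Leaving out secondary glioma 2, 3 or 4 ended the call of Cd80 (adjusted p = 0.0891, 0.0732 and 0.0721), as did leaving out tertiary glioma 3 (0.109). The changes of Cd80 and Cd86 differed by 4.20 (exact permutation p = 0.0286, or 0.0357 adjusted over the 5 pairs). The Cd80 probe, with a secondary mean of 5.08, had little room to fall. The test therefore cannot tell an unequal change of the genes from an unequal brightness of their probes.

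**Figure D2:**
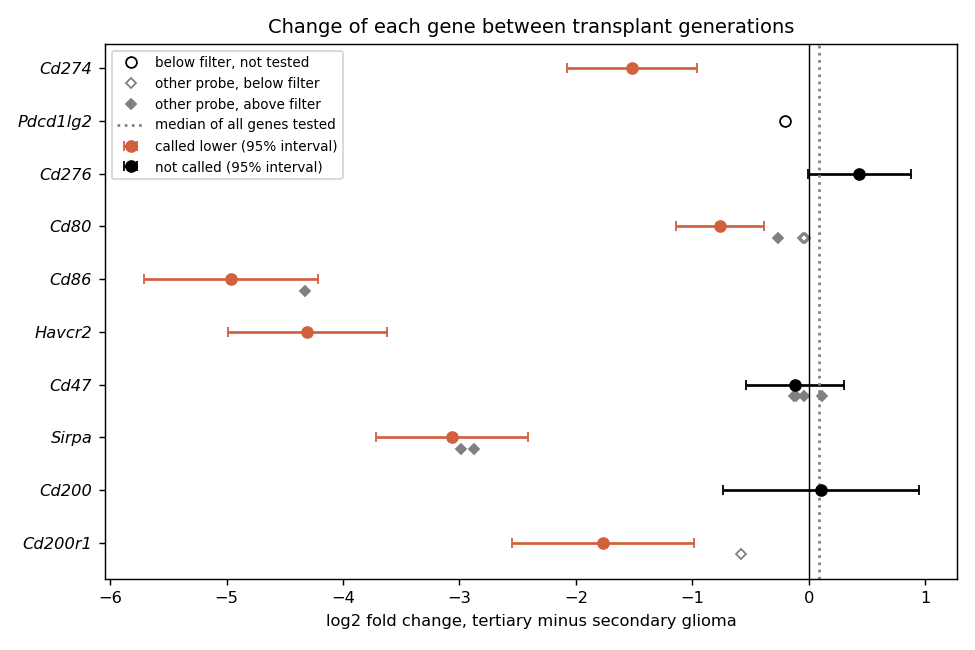
Log2 fold change of each gene, tertiary minus secondary, with the 95% interval from limma (orange, called lower; black, not called); diamonds are the genes' other probes, open where below the filter. Cd86, Havcr2 and Sirpa lie at or beyond -3.06, the intervals of Cd276, Cd47 and Cd200 include 0, and the other probes of Cd80 lie nearer 0 than the probe used.

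Havcr2 encodes TIM-3, an inhibitory receptor of exhausted T cells and of microglia and macrophages. It was at 8.10, 8.79, 9.33 and 8.61 in secondary gliomas 1 to 4 and at 4.35, 4.76 and 4.09 in tertiary gliomas 1 to 3. The lowest secondary sample lay far above the highest tertiary one, and the order of the samples within each group was that of the microglia and macrophage marker mean. No other gene that fell kept that order in both groups. Cd274, Cd80 and Sirpa kept it in secondary gliomas only, Cd200r1 in tertiary gliomas only, and Cd86 in neither. What sets the order was not tested. The log2 fold change was -4.31 ± 0.29 (SE; limma adjusted p = 0.000113), or 19.8-fold lower. The tertiary mean of 4.40 lay close to the filter, so this size is also limited by dim signal.

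CD47 and its receptor SIRPα form the axis that restrains engulfment. Cd47 was at 10.54, 10.57, 10.20 and 10.47 in secondary gliomas 1 to 4 and at 10.69, 10.09 and 10.21 in tertiary gliomas 1 to 3. The highest and the lowest of the 7 values were both tertiary. The difference was -0.12 ± 0.18 (SE; limma adjusted p = 0.741), with a 95% interval from -0.54 to 0.31. The 4 other probes of Cd47, all above the filter, gave differences between -0.12 and 0.12, and none was called.

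Sirpa was at 10.92, 11.37, 11.63 and 11.08 in secondary gliomas 1 to 4 and at 8.81, 7.93 and 7.82 in tertiary gliomas 1 to 3. It remained well above the filter in each tertiary sample, unlike Cd86, and tertiary glioma 1 was the highest of them. The log2 fold change was -3.06 ± 0.28 (SE; limma adjusted p = 0.000397), and the 2 other probes gave -2.99 and -2.88, each called. NOD mice carry their own Sirpa allele, and no source used here says whether these probes read host and C57/Bl6 transcripts alike. The changes of Cd47 and Sirpa differed by 2.95 (exact permutation p = 0.0286; 0.0357 adjusted over the 5 pairs).

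CD200 quiets microglia and macrophages that carry its receptor. Cd200 was at 8.59, 8.59, 7.36 and 8.81 in secondary gliomas 1 to 4 and at 8.64, 8.01 and 8.67 in tertiary gliomas 1 to 3. Secondary glioma 3 stood apart below the other 6 samples, which overlapped. The difference was 0.11 ± 0.36 (SE; limma adjusted p = 0.889), with a 95% interval from -0.73 to 0.95, and it was -0.22 without secondary glioma 3.

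Cd200r1 was at 6.48, 5.46, 6.12 and 5.16 in secondary gliomas 1 to 4 and at 4.14, 4.34 and 3.62 in tertiary gliomas 1 to 3. Secondary gliomas 1 and 3 were the highest, and all tertiary values lay below the secondary ones. The log2 fold change was -1.77 ± 0.34 (SE, limma adjusted p = 0.0186). Its adjusted p was 0.0565 without secondary glioma 3 and 0.0786 without tertiary glioma 3. The tertiary mean of 4.04 lay close to the filter, with tertiary glioma 3 below it, so this size is limited by dim signal. The other probe of Cd200r1 lay below the filter, with secondary and tertiary means of 2.36 and 1.78 (difference -0.58). The changes of Cd200 and Cd200r1 differed by 1.87, which missed the threshold (exact permutation p = 0.0571, also after adjustment over the 5 pairs).

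**Figure D3:**
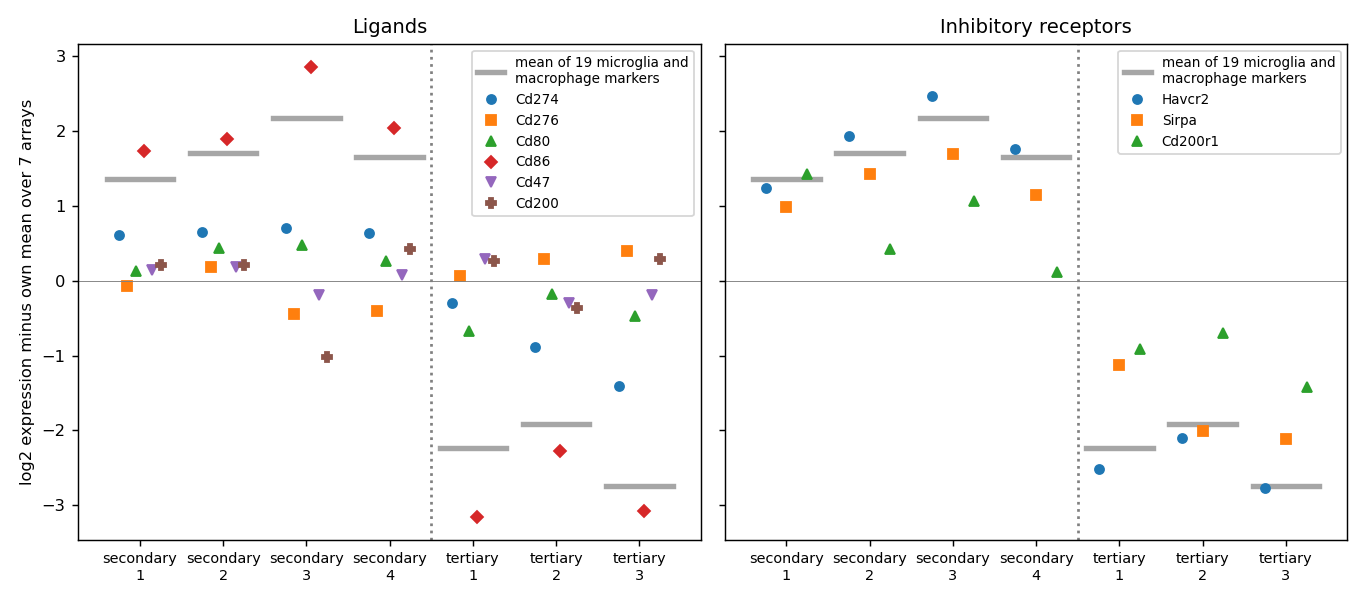
Log2 expression of each tested gene minus its own mean over the 7 arrays, by sample, with ligands on the left and receptors on the right; grey bars give the mean of 19 microglia and macrophage markers treated the same way. Cd86 and Havcr2 span a range at least as wide as the grey bars, Cd200r1 and Cd274 a narrower one, and Cd276, Cd47 and Cd200 stay near 0 apart from Cd200 in secondary glioma 3.

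The genes with the most similar profiles were sought by the root mean square distance between profiles centred on their own mean over the 7 arrays, on the log2 scale. For Cd86 they were Ctsh, Cd180 and Arhgap25 (0.22, 0.23 and 0.25), against a median of 2.55 over all genes. For Havcr2 they were Abcc3, Nckap1l and Cd300a (0.10, 0.12 and 0.16), and for Sirpa Calhm6, Vamp8 and Timp2 (0.14, 0.16 and 0.20). The nearest to Cd200r1 were Tlr6, Cds1 and Pltp (0.26, 0.26 and 0.28). For Cd274 they were Itm2c, Glmp and Trpm6 (0.16, 0.17 and 0.20), and for Cd80 Grb2, Cstb and Atox1 (0.0536, 0.0547 and 0.0715). Cd276 was nearest to Cebpg, Gucy1b1 and Cdk5rap2 (0.0847, 0.0884 and 0.0889), Cd47 to Slc35a5, Nsmf and Clec2i (0.0437, 0.0523 and 0.0646) and Cd200 to Kctd4, Sox21 and Tnfaip6 (0.14, 0.16 and 0.16). Genes that change little lie close to many others, so distances of different genes are not comparable.

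Other ligands of checkpoint receptors also fell in part. Of 11 tested, 4 were lower and 0 higher (median log2 fold change -0.76), and 2 of the 4, Cd48 and Ceacam1, had a tertiary mean below the filter and were tested through their secondary level alone. Vsir, which encodes the T cell inhibitor VISTA, was between 8.09 and 8.99 in secondary and between 4.74 and 5.13 in tertiary gliomas (log2 fold change -3.51 ± 0.22 SE; limma adjusted p = 9.91e-05), or -4.33 with all its probes averaged. Cd48, a ligand of the receptor 2B4, was at 3.33, 3.74 and 2.62 in tertiary gliomas, all below the filter, and differed by -5.17 ± 0.34. Icosl, the ligand of ICOS, changed by -2.97 ± 0.42, or by -1.52 with all its probes averaged, and its call was lost with the variance of each gene on its own (adjusted p = 0.0545). Ceacam1, a reported ligand of TIM-3, changed by -1.36 ± 0.31 (limma adjusted p = 0.0378), and its call was lost without the dim filter (0.0508), without secondary gliomas 1 (0.0513) or 4 (0.0952) and without tertiary gliomas 1, 2 or 3 (0.0684, 0.0782 and 0.110). Pvr, the poliovirus receptor bound by TIGIT, was at 0.35 ± 0.13 and not called.

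Of 15 checkpoint and costimulatory receptors of lymphocytes, 8 passed the filter and were tested, and 2 of the 8 were lower and 0 higher (median -0.07). Pdcd1, which encodes PD-1, was at 6.56, 6.92, 7.49 and 6.80 in secondary and at 3.85, 3.68 and 3.78 in tertiary gliomas. Its groups did not overlap and secondary glioma 3 was the highest, but all 3 tertiary values lay below the filter, so it too was tested through its secondary level alone (log2 fold change -3.17 ± 0.22 SE; limma adjusted p = 0.000113). Lag3, an inhibitory receptor that binds MHC class II, was at 7.98, 9.58, 9.97 and 9.45 in secondary and at 5.22, 5.44 and 4.75 in tertiary gliomas (-4.11 ± 0.45; adjusted p = 0.00102). Of the T cell markers, Cd3e was below the filter and not tested, at 2.64 ± 0.15 (SD) in secondary and 2.74 ± 0.15 in tertiary gliomas. Cd8a was at 5.02 and 4.94 (log2 fold change -0.08, limma adjusted p = 0.785). Ctla4 was also below the filter, with means of 3.05 and 3.12.

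Inhibitory receptors of myeloid and B cells outside the 10 genes were lower in 9 of 15 tested cases and higher in 0 (median -2.22). The sialic acid receptor Cd22 changed by -4.41 ± 0.19 (SE; limma adjusted p = 7.51e-05), the collagen receptor Lair1 by -4.52 ± 0.38, Cd300a by -4.39 ± 0.35 and Cd72 by -2.65 ± 0.21. With all probes averaged Cd22 was at -3.41 and Cd300a at -3.04. Among the signalling proteins below such receptors, 6 of 13 were lower and 0 higher (median -0.78). Ptpn6, the phosphatase SHP-1 recruited by SIRPα, was between 7.62 and 9.19 in secondary and between 2.99 and 4.19 in tertiary gliomas (-4.92 ± 0.40; adjusted p = 0.000227). Its tertiary mean of 3.56 lay below the filter, so this size is limited too, and all its probes averaged gave -3.12. Its widely expressed relative Ptpn11, the phosphatase SHP-2, was at 0.10 ± 0.14 (adjusted p = 0.694). The adaptors Fyb (-4.32 ± 0.38) and Pag1 (-1.89 ± 0.27) and the lipid phosphatase Inpp5d (-1.40 ± 0.22, or -2.62 with all its probes averaged) were lower too. The microglia and macrophage markers (median -4.19) and the 3 tested granulocyte and monocyte markers (median -3.45) were lower in the same samples. Their part in these lists was not tested.

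**Figure D4:**
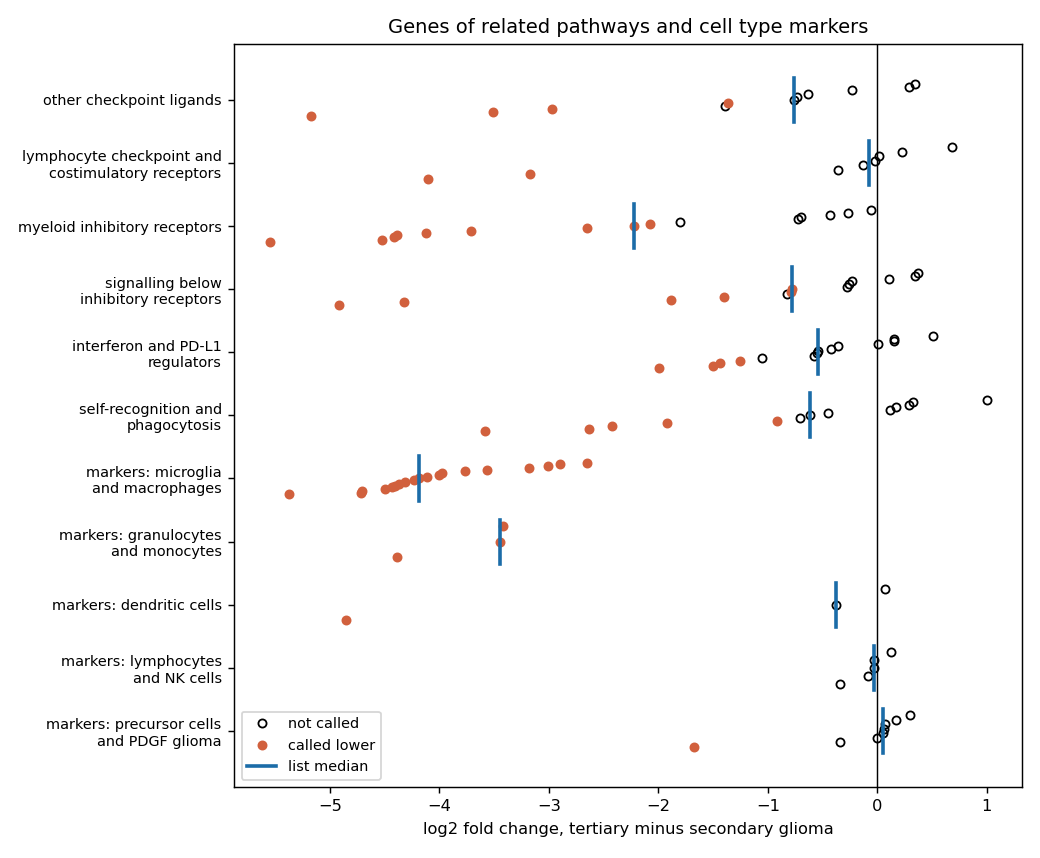
Log2 fold change, tertiary minus secondary, of each tested gene in 6 lists of related genes and 5 lists of cell type markers (orange, called lower; open, not called; blue bar, list median). No gene shown was called higher; the microglia and macrophage markers lie between -5.37 and -2.65, the 3 granulocyte and monocyte markers between -4.38 and -3.42 and Itgax at -4.86, and the lymphocyte and the precursor markers lie near 0 apart from Pdgfb.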

How the data were processed

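RNA of 7 samples was amplified from 30 ng of total RNA labelled with biotin and hybridised to mouse arrays, per the labels' protocols. The authors deposited log2 expression values made with RMA, per the submitters' processing notes; no source used here gives the version, software, detection calls or scan dates, the values themselves showed the log base, and no batch could be tested. RMA makes the arrays alike and compresses differences of dim probes. Of 45101 probes, 34945 had 1 gene symbol. Groups came from the labels. limma 3.58.1 (lmFit, eBayes) in R 4.3.3 was fitted to 14453 genes, without covariates, and tested on simulated data. Figures used matplotlib 3.10.9. Pairs of genes were compared by exact permutation of the difference of their log2 values. The labels do not say whether replicate numbers pair samples, and low correlations of deviations (0.0361, -0.144 and 0.0145) cannot exclude it. Named genes were all 10 members, up to 4 called genes of each related list by lowest p, and the 3 nearest profiles of each member; Pvr, Ptpn11, Cd3e, Cd8a, Ctla4, Pdgfra and Olig1 were added after their values were seen. Members and lists were chosen with earlier results of these data known. Alternatives covered probes, filter, scaling, variance model, weights, block and left-out samples.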

Additional observations from a re-analysis of the deposited data

Results flagged for a closer look

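In the 4 secondary gliomas, the gap between the farthest sample and its nearest neighbour was compared with the whole range for 48 genes and list means, and 2 exceeded the 95% critical value of Dixon's test, which chance alone passes in about 1 in 20 groups. Cd200 was at 7.36 in secondary glioma 3, against 8.59 to 8.81 in the other secondary gliomas. Pdcd1lg2 was at 2.96 in secondary glioma 3, against 2.69 to 2.73 in the others, all below the filter on dim probes. Secondary glioma 3 also had the highest mean of microglia and macrophage markers, 10.90.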

How the results depend on the processing

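The calls of Cd86, Havcr2 and Sirpa held under every alternative run, with log2 fold changes from -5.24 to -4.56, from -4.51 to -4.08 and from -3.38 to -2.88, and no call changed sign. Cd86 passed the filter only through its secondary level, so its call remains a description. Of 177 alternative values of the 10 genes, 163 were rated as unchanged and 14 lost a call, all of Cd274, Cd80 or Cd200r1. The 163 include all values of Pdcd1lg2, which were rated only by whether the change moved by less than its SD. Left uncounted, as not tested, were Cd80 and Cd200r1 under the 50th percentile filter and Cd200r1 with all probes averaged. With the variance of each gene on its own, 3 of the 9 genes, 18 of 74 related genes and 521 of all genes were called, against 6, 30 and 1066. All genes called numbered 1933 with array weights, 1622 at an adjusted p under 0.10, and between 647 and 1857 with 1 sample left out. A replicate block gave 636, with Cd274 at an adjusted p of 0.0592 and Cd80 at 0.0924, so both lost their call. The labels do not say whether replicate numbers pair the samples. Without both secondary glioma 3 and tertiary glioma 1, Cd80 (0.0786) and Cd200r1 (0.0716) lost their call. Among uncalled genes, Cd200 ranged from -0.32 to 0.32. With 1 sample left out, the pair test cannot pass its threshold. Few arrays and dim tertiary probes limit the precision.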

Other observations

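Genes that regulate PD-L1 or the interferon response were lower in 4 of 14 tested cases and higher in 0 (median log2 fold change -0.55). Cmtm6, which protects PD-L1 from breakdown, changed by -1.50 ± 0.24 (SE; limma adjusted p = 0.00767), with secondary glioma 3 the highest at 9.65. The interferon gamma receptor chains Ifngr1 and Ifngr2 changed by -1.99 ± 0.36 and -1.44 ± 0.26, and both calls were lost without tertiary glioma 2 (adjusted p = 0.0552 and 0.0507) or tertiary glioma 3 (0.0590 and 0.0593). Ifnar2, a chain of the type I interferon receptor, changed by -1.25 ± 0.21. The markers of microglia and macrophages (median -4.19) and the 3 tested ones of granulocytes and monocytes (median -3.45) were lower in these samples too. Their part was not tested.

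Among genes of self-recognition and engulfment, 5 of 13 tested were lower and 0 higher (median -0.61). The receptor kinase Mertk, which mediates uptake of dying cells, was at 9.20, 9.69, 10.55 and 9.26 in secondary gliomas and at 8.02, 5.32 and 4.93 in tertiary gliomas. Tertiary glioma 1 thus lay nearer to the secondary samples than to the other tertiary ones (log2 fold change -3.58 ± 0.72 SE; limma adjusted p = 0.0237). Leaving out tertiary glioma 1 gave -4.55. Its call was lost without secondary gliomas 2, 3 or 4 (0.0654, 0.0683 and 0.0528) and without tertiary gliomas 2 or 3 (0.101 and 0.0856). The related kinase Axl changed by -1.92 ± 0.29 (-0.94 with all its probes averaged) and the integrin subunit Itgb3 by -2.42 ± 0.36 (-1.80 with all averaged). The scavenger receptor Cd36 differed by -2.64 ± 0.30, with a tertiary mean of 3.35, below the filter.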
